A study of Mus musculus with 24 samples.

Results

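RNA from 6 melanomas of TN61L/L mice was compared with RNA from 6 melanomas of TN61R/R mice, 12 of the 24 tumours sequenced over 4 genotypes. Each tumour was placed in its group by the genotype in its label. The comparison sets a leucine against an arginine at codon 61 of NRAS, with both copies of the gene carrying the change. In TN mice a Cre recombinase that 4-hydroxytamoxifen switches on is driven by the tyrosinase promoter, so that the mutant Nras is expressed from its own locus in melanocytes. The labels of all 12 tumours give the C57BL/6 background, and 20 mM 4-hydroxytamoxifen was put on the skin on postnatal days 1 and 2. The tumours were described as spontaneous and were taken when the mouse met the criteria for removal, and their ages are not in the labels. The study's methods also describe ultraviolet B exposure of pups after the tamoxifen, which the labels do not name, so whether these mice were exposed is not known here. The leucine allele was made by editing TN61R/R zygotes and was then crossed back to TN61R/R mice for a few generations, so both groups share the parental line. The labels do not state that each tumour came from a different mouse, so the p-values measure the spread between these samples.

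NRAS is a small GTPase that passes growth signals from receptors to the RAF kinases, and from them through MEK to ERK. Its glutamine at codon 61 takes part in hydrolysing GTP, and a replacement there leaves the protein in its active, GTP-bound form. Active ERK induces its own inhibitors, such as the Dusp phosphatases and the Sprouty and Spred proteins, and their transcripts are commonly read as a gauge of the pathway.

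The site that differs between the groups lies in exon 3 of Nras, on the plus strand at chr3:103060249-103060293 of mm10. The reference sequence of codons 54 to 68 is shown so that the altered codon can be placed, with codon 61 (bases 103060270 to 103060272) in capitals. It was read from the GENCODE transcript, and the bases of the leucine and arginine alleles were not used here.
Nras: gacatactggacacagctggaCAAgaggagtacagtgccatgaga

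The libraries held 35.9 ± 2.55 M counted reads in TN61L/L and 35.2 ± 2.34 M in TN61R/R (SD, n = 6 each), with 32.1 to 39.1 M in single tumours. Sox10, which marks the melanocyte and Schwann lineages, was measured in all 12 at 190 to 652 CPM (read counts scaled to the size of the library). Genes of the melanosome were low or missing in several tumours, and Dct was at 0 in TN61R/R replicate 2 and in TN61L/L replicate 1. Keratin genes took 0.00135% to 0.830% of the reads in TN61L/L and 0.00207% to 1.48% in TN61R/R, so both groups held tumours with nearly no skin and tumours with much of it. Xist was high in 3 of 6 TN61L/L and 4 of 6 TN61R/R tumours. All TN61L/L titles carry the code 61L, whereas TN61R/R titles carry 61K, 61L or 61P, 2 tumours each. In bulk tumours, fewer cells of a type and less RNA per cell cannot be told apart.

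No single gene passed edgeR's test between the 2 genotypes. Of 17214 genes tested, edgeR's quasi-likelihood test called 0 (0%) at an adjusted p of 0.05, and the lowest adjusted p was 0.304, shared by 5 genes. At an unadjusted p under 0.05 there were 956 genes (5.55%), of which 585 (3.4%) had a higher and 371 (2.16%) a lower level in TN61L/L. limma-voom also called 0 genes, with 911 at an unadjusted p under 0.05. DESeq2 called 31 genes in a fit of all 24 libraries, 24 higher and 7 lower, and 131 in a fit of the 12 libraries alone, 101 higher and 30 lower. Of those 31 genes, 29 were also called in the fit of the 12 libraries, and 30 had been tested by edgeR, with adjusted p-values of 0.304 to 0.644. The count of calls thus depended on the tool, and single genes are given here by their values and intervals. The median half-width of the 95% interval of a log2 fold change was 0.455 for the 14990 genes of at least 1 CPM.

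**Figure D1:**
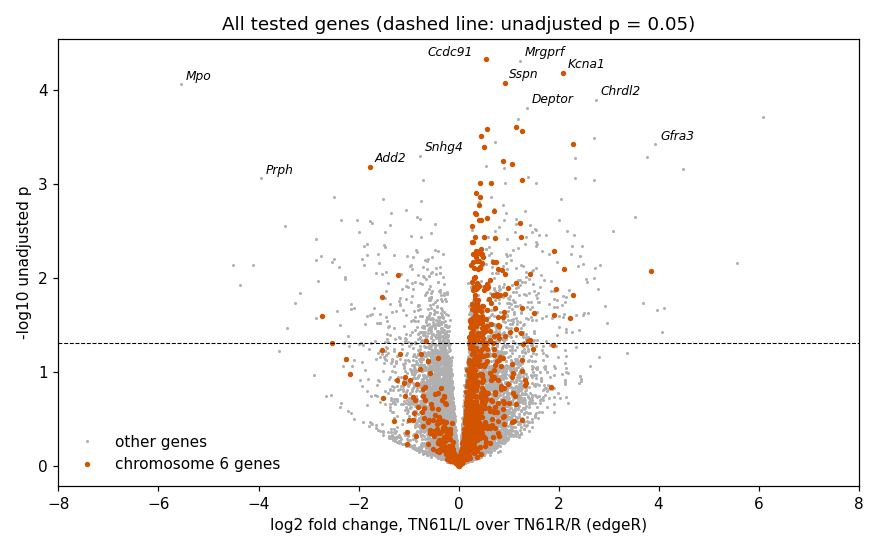
Each point is 1 of 17214 genes, with the log2 fold change of TN61L/L over TN61R/R from edgeR on the horizontal axis and -log10 of the unadjusted p on the vertical axis. Genes of chromosome 6 (orange) lie mostly to the right of 0, 701 of 878 of them.

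Among the genes with the smallest p-values, the levels of the 2 genotypes often did not overlap. Genes picked for small p-values tend to be separated, so the lack of overlap describes them and adds no support. The lowest TN61L/L tumour exceeded the highest TN61R/R tumour in 57 genes (0.331%), and the reverse held in 15 (0.0871%). By regrouping alone, 6 against 6 tumours separate fully in either direction with a probability of 0.00216. That probability covers both directions, whereas each count is for its own direction only, so neither compares with it directly. The counts were not tested against regrouping. Kcna1, a voltage-gated potassium channel of nerve fibres, stood at 949, 1324 and 1801 CPM (lowest, median, highest) in TN61L/L and at 152, 294 and 504 CPM in TN61R/R. Every TN61L/L tumour was above the highest TN61R/R tumour, and the log2 fold change was 2.09 ± 0.43 (SE; adjusted p = 0.304). Its neighbour on the same strand, Kcna6, stood at 383, 488 and 902 CPM in TN61L/L and at 163, 208 and 303 CPM in TN61R/R, again without overlap (log2 fold change 1.28 ± 0.34, adjusted p = 0.463). Kcna5, a channel gene of the same family on chromosome 6, had means of 3.30 and 2.68 CPM and a log2 fold change of 0.30 ± 0.65. That error is too wide to say whether Kcna5 followed them. In mm10, Kcna1 lies at chr6:126636463-126645801 and Kcna6 at chr6:126708329-126740674. Over the 10 Kcna channel and beta subunit genes tested, 5 had a fold change above 0 and 5 below, with a median of 0.13. That median was -0.11 in a fit without the genes of chromosome 6 and 0.45 without TN61R/R replicate 2.

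Mrgprf, an orphan receptor of the Mas-related family on chromosome 7, stood at 52.5, 70.3 and 102 CPM in TN61L/L and at 16.8, 34.3 and 44.3 CPM in TN61R/R. The groups did not overlap, and the log2 fold change was 1.23 ± 0.25 (adjusted p = 0.304). Sspn, sarcospan of the dystrophin complex, stood at 91.9, 111 and 137 CPM in TN61L/L and at 43.2, 55.9 and 88.8 CPM in TN61R/R (log2 fold change 0.92 ± 0.19, adjusted p = 0.304). Ccdc91, which encodes a partner of GGA sorting proteins, had the smallest p of all genes and a small fold change. It stood at 31.6, 35.9 and 39.7 CPM in TN61L/L and at 21.7, 24.6 and 27.8 CPM in TN61R/R, a log2 fold change of 0.54 ± 0.11 (adjusted p = 0.304). Chrdl2, a secreted inhibitor of bone morphogenetic proteins, was near the limit of detection, at 0.797, 1.08 and 2.77 CPM in TN61L/L and 0.0254, 0.175 and 0.579 CPM in TN61R/R (log2 fold change 2.74 ± 0.59, adjusted p = 0.370). Sspn and Ccdc91 are on chromosome 6, and none of the 4 genes showed any overlap between the genotypes.

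**Figure D2:**
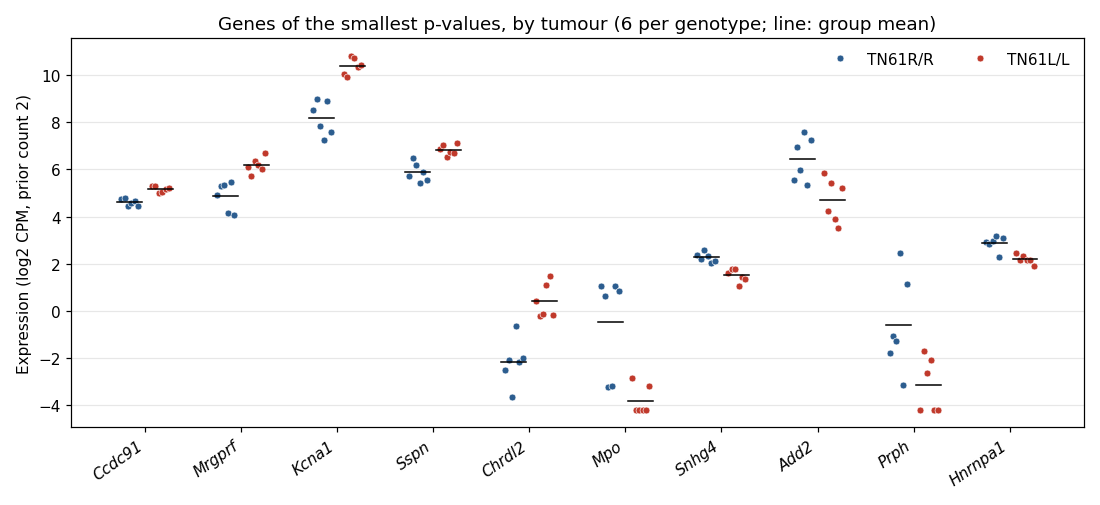
Expression of the 5 genes with the smallest p-values in each direction, as log2 CPM with a prior count of 2. Each point is a tumour, 6 per genotype, and lines are group means. Ccdc91, Mrgprf, Kcna1, Sspn and Chrdl2 show no overlap between the genotypes, and Mpo, Add2, Prph and Hnrnpa1 do.

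Of the 5 genes with the smallest p-values among those lower in TN61L/L, only Snhg4 separated the groups completely. Snhg4, a host gene of small nucleolar RNAs, stood at 2.00, 2.85 and 3.41 CPM in TN61L/L and at 4.02, 4.78 and 5.90 CPM in TN61R/R (log2 fold change -0.76 ± 0.19, adjusted p = 0.438). Hnrnpa1, an RNA-binding protein with many processed copies in the genome that can share its reads, stood at 3.74, 4.44 and 5.42 CPM against 4.85, 7.70 and 8.90 CPM (log2 fold change -0.71 ± 0.19). Add2, beta-adducin of the membrane skeleton, was an exception on chromosome 6, at 11.5, 27.7 and 57.4 CPM in TN61L/L and 40.2, 92.9 and 194 CPM in TN61R/R, a log2 fold change of -1.76 ± 0.45 with 4 of 6 TN61L/L tumours below all TN61R/R tumours (adjusted p = 0.442). The other pair rested on few reads. Mpo, the myeloperoxidase of neutrophil granules, had 3 and 2 reads in TN61L/L replicates 1 and 6 and 0 in the other 4, against 68, 50, 72 and 61 in TN61R/R replicates 1, 2, 5 and 6 and 2 in each of replicates 3 and 4. Prph, the intermediate filament peripherin, had at most 9 reads in a TN61L/L tumour and 2 to 196 in TN61R/R, and its log2 fold change of -3.95 went to -2.82 without TN61R/R replicate 4.

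Several other genes of small p, chosen after their values were seen, belong to signalling and to the nervous system. Gfra2, a receptor chain for GDNF family ligands, stood at 149, 219 and 488 CPM in TN61L/L and at 80.1, 119 and 138.5 CPM in TN61R/R, with no overlap (log2 fold change 1.19 ± 0.27, adjusted p = 0.387). Gfra3, another chain of that family, spread over a wide range within TN61L/L, from 3.42 to 76.7 CPM, against 0.661 to 6.81 CPM in TN61R/R (log2 fold change 3.94 ± 0.94). Both belong to the neural crest and Schwann cell list. Of its 19 genes, 15 had a fold change above 0, beside 48.6% of all genes, and 3 of these, Gfra2 and Gfra3 among them, had an unadjusted p under 0.05 in that direction, beside 3.4% of all genes. Its median was 0.16, beside -0.01 for all genes tested, and ranged from 0.08 to 0.37 with single libraries left out. Among its other members, Sox10 and Ngfr had log2 fold changes of -0.26 ± 0.30 and 0.16 ± 0.25.

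Deptor, an inhibitory partner of mTOR, stood at 160, 273 and 442 CPM in TN61L/L and at 78.2, 104 and 173 CPM in TN61R/R, with 5 of 6 TN61L/L tumours above all TN61R/R tumours (log2 fold change 1.37 ± 0.30, adjusted p = 0.385). The median over 17 PI3K and mTOR genes was 0.02. Of the 17, 3 had an unadjusted p under 0.05, beside 5.55% of all genes. Besides Deptor these were Pik3r1, a regulatory subunit of PI3K, and Mlst8, a shared subunit of the mTOR complexes. Their log2 fold changes were 0.28 ± 0.12 and -0.25 ± 0.11. Mtor, Rptor and Rictor had log2 fold changes of 0.08 ± 0.14, -0.15 ± 0.14 and -0.01 ± 0.12. Ecel1, an endopeptidase of neurons, had the steepest contrast among these genes and the least even one, at 0.171, 6.34 and 43.9 CPM in TN61L/L against 0.113, 0.187 and 0.478 CPM in TN61R/R. TN61L/L replicate 2 lay within the TN61R/R range. Flnc, a large actin cross-linker also on chromosome 6, stood at 569, 809 and 1119 CPM against 177, 388 and 543 CPM (log2 fold change 1.16 ± 0.27, adjusted p = 0.387). Itgb3, the integrin beta-3 chain linked to invasive growth of melanoma, stood at 23.4, 41.9 and 45.3 CPM against 15.9, 20.7 and 31.3 CPM (log2 fold change 0.73 ± 0.17), with 4 of 6 tumours above the TN61R/R range. Beside the means of 286 CPM in TN61L/L and 111 CPM in TN61R/R, Deptor had means of 140 CPM in TN61K/K and 413 CPM in TN61H/H, given without a test. For Mrgprf the means were 73.6 and 31.4 CPM in TN61L/L and TN61R/R, 39.6 CPM in TN61K/K and 107 CPM in TN61H/H.

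Only 15 genes (0.0871%) were lower in every TN61L/L tumour than in every TN61R/R tumour. Regrouping alone gives full separation in either direction with a probability of 0.00216. That probability covers both directions and this count only the lower, so they do not compare directly. The count was not tested against regrouping. Separation therefore adds no support for the genes named here, which were also chosen after their values were seen. They included secreted and signalling factors, a grouping that was not tested. Dkk2, a secreted modulator of Wnt signals, stood at 6.56, 16.7 and 22.4 CPM in TN61L/L and at 27.4, 49.6 and 92.2 CPM in TN61R/R (log2 fold change -1.83 ± 0.60, adjusted p = 0.693). Tnfsf18, a ligand of the TNF family that costimulates T cells, stood at 0.589, 2.39 and 3.73 CPM against 3.91, 10.95 and 23.6 CPM. Ptpn5, a phosphatase of neurons that acts on ERK, stood at 0.731, 1.36 and 2.16 CPM against 2.39, 7.46 and 29.0 CPM. None of these separated genes was called by edgeR, while DESeq2 called all 3 in the fit of the 12 libraries and 0 of them in the fit of all 24. Scg2, a granin of secretory vesicles, was also separated, at 0.217 to 0.553 CPM against 0.570 to 39.7 CPM, but its log2 fold change of -4.50 was -2.19 without TN61R/R replicate 2, which held the highest level.

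The change in allele was not accompanied by a difference in Nras itself that passed the test. Nras stood at 80.8, 127 and 186 CPM in TN61L/L and at 91.0, 169 and 225 CPM in TN61R/R, with means of 135 ± 43.1 and 155 ± 52.0 CPM (SD, n = 6 each). The ranges overlapped almost fully, and the log2 fold change was -0.20 ± 0.26, with a 95% interval of -0.73 to 0.33 (adjusted p = 0.996). Counts per gene do not separate the leucine from the arginine transcript, so the level does not check the genotype. Hras, a related GTPase, had a log2 fold change of 0.01 ± 0.24 and turned sign in several alternatives.

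Braf, the RAF kinase most often mutated in melanoma, stood at 97.8, 141 and 167 CPM against 87.9, 102 and 170 CPM, with overlapping ranges (log2 fold change 0.30 ± 0.18, adjusted p = 0.941). Braf is on chromosome 6, whose genes were shifted together as described further on. Araf, the RAF gene of the X chromosome, and the kinases Map2k1 and Mapk3 had log2 fold changes of -0.01 ± 0.10, 0.02 ± 0.18 and -0.06 ± 0.16. Across 21 tested genes of the RAS, RAF, MEK and ERK chain, 11 were above 0 and 10 below, with a median of 0.01.

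Transcripts induced by ERK mostly had fold changes below 0 in TN61L/L, without an edgeR call for any gene. Of 19 ERK targets and feedback inhibitors, 17 had a fold change below 0, and the median was -0.48, beside -0.01 for all 17214 genes, of which 51.4% were below 0. At an unadjusted p under 0.05 there were 6 of 19, all lower, beside 2.16% of all genes. These 6 were Dusp6, Spry4, Spred2, Etv4, Etv5 and Ier3. The genes respond to the same kinase and are not independent of each other. Dusp6, the phosphatase that switches off ERK, stood at 112, 188 and 264 CPM in TN61L/L and at 206, 287 and 372 CPM in TN61R/R. In 4 of 6 TN61L/L tumours it was below every TN61R/R tumour, and the log2 fold change was -0.57 ± 0.21 (95% interval -1.01 to -0.14, adjusted p = 0.749).

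The ranges of the other feedback genes overlapped too. Spred2, which keeps RAS from activating RAF, stood at 41.1, 43.7 and 52.0 CPM against 44.8, 52.2 and 86.5 CPM (log2 fold change -0.39 ± 0.16). As for Dusp6, 4 of 6 TN61L/L tumours were below every TN61R/R tumour. Spry2 and Spry4, both Sprouty inhibitors, had log2 fold changes of -0.12 ± 0.19 and -0.65 ± 0.28, and Spry1 went the other way at 0.30 ± 0.31. Etv4 and Etv5, ETS transcription factors that ERK induces, had log2 fold changes of -1.72 ± 0.51 and -0.93 ± 0.32. Without TN61R/R replicate 6 the values were -0.36 for Spry4, -0.51 for Etv5 and -0.24 for Spred2. For Etv4 the difference lay in a pair of TN61R/R tumours, replicates 4 and 6, at 56.8 and 64.9 CPM, while the other 4 stood at 4.90 to 14.3 CPM and TN61L/L at 5.39 to 11.9 CPM. Its log2 fold change was -1.26 without TN61R/R replicate 6 and -1.39 without replicate 4. The level of the whole list in a tumour, as the median over its genes of log2 CPM less their mean over the 12 tumours, ran from -0.54 to 0.13 in TN61L/L and from -0.17 to 0.72 in TN61R/R. TN61R/R replicates 4 and 6 were the highest, at 0.47 and 0.72, and TN61L/L replicate 5 was the lowest. Without replicate 6 the list median was -0.41, and over all 12 libraries left out in turn it stayed between -0.63 and -0.41.

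**Figure D3:**
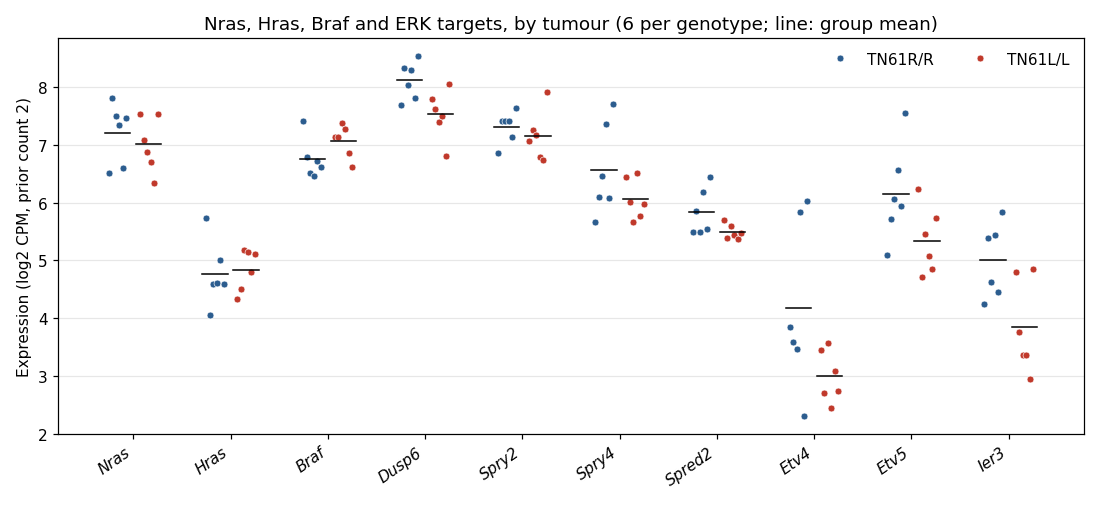
Expression of Nras, Hras, Braf and of 7 ERK targets, as log2 CPM with a prior count of 2, for each tumour of the 2 genotypes (lines are group means). Nras and Hras overlap widely, and the highest Etv4 values belong to 2 TN61R/R tumours.

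Proliferation genes varied more within TN61R/R than between the genotypes. Mki67, a marker of cycling cells, stood at 210, 320 and 402 CPM in TN61L/L and at 98.1, 342 and 814 CPM in TN61R/R. The TN61L/L tumours all lay within the TN61R/R range, and the log2 fold change was -0.45 ± 0.36 (adjusted p = 0.961). Of 29 proliferation genes, 28 had a fold change below 0, beside 51.4% of all genes, with a median of -0.34. The mean list level was -0.04 in TN61L/L and 0.07 in TN61R/R, beside an SD of 0.76 between tumours of a genotype. The list level of a tumour ran from -0.55 to 0.28 in TN61L/L and from -1.25 to 1.26 in TN61R/R, where replicates 4 and 6 were again the highest. Without TN61R/R replicate 6 the list median was -0.09, without replicate 4 it was -0.15, and without replicates 2 and 5 in turn it was -0.53 and -0.52. Of the 29 genes, 1 had an unadjusted p under 0.05, beside 5.55% of all genes. It was Mcm7, a subunit of the replicative helicase, at means of 41.6 and 60.9 CPM (log2 fold change -0.55 ± 0.24).

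Mtap, an enzyme of the methionine salvage pathway, showed the same pair of tumours. It stood at 33.2, 37.2 and 62.9 CPM in TN61L/L and at 37.3, 64.8 and 276 CPM in TN61R/R, with 177 and 276 CPM in TN61R/R replicates 4 and 6. The log2 fold change of -1.35 ± 0.39 was -0.83 without replicate 6 (adjusted p = 0.636 with it). Of 15 p53 targets and CDK inhibitors, 11 had a fold change below 0 (median -0.16), and Cdkn1a, the p21 inhibitor of cyclin-dependent kinases, had the smallest p, with a log2 fold change of -0.55 ± 0.25. MYC target genes had a median of -0.15, with 11 of 14 below 0. Of all genes, 51.4% were below 0.

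Pigment genes were dominated by one tumour. Tyr, the tyrosinase of melanin synthesis, stood at 0.663, 2.39 and 9.88 CPM in TN61L/L and at 0.0551, 1.00 and 24.5 CPM in TN61R/R, with the highest value in TN61R/R replicate 1. The median fold change over 15 pigment genes was -0.40 and became 1.10 without that tumour. In the list level per tumour the order of the group means was the opposite, 0.36 in TN61L/L and -0.16 in TN61R/R, so no direction can be given. Mitf, the regulator of the lineage and a chromosome 6 gene, stood at 29.7, 36.0 and 46.2 CPM in TN61L/L and at 21.1, 26.1 and 58.7 CPM in TN61R/R (log2 fold change 0.19 ± 0.25, adjusted p = 0.996). Slc24a5, a cation exchanger of the melanosome, had the smallest p of the list, but its log2 fold change of -1.93 ± 0.64 was -0.53 without TN61R/R replicate 2.

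Leukocyte transcripts mostly had fold changes below 0 in TN61L/L, beside 51.4% of all genes. None was called by edgeR, and DESeq2 called Mpo of the neutrophil list in both of its fits. Ptprc, the CD45 antigen of all leukocytes, stood at 39.3, 64.8 and 98.8 CPM in TN61L/L and at 52.4, 103 and 152 CPM in TN61R/R (log2 fold change -0.58 ± 0.34, adjusted p = 0.934). Medians were -0.35 for 20 T and NK cell genes (16 below 0), -0.31 for 16 macrophage genes (15 below 0) and -0.40 for 14 dendritic cell and MHC class II genes (12 below 0). Without TN61R/R replicate 5 the T and NK median was -0.09 and the dendritic cell median -0.26. The dendritic cell median was -0.23 without TN61R/R replicate 2 and -0.62 without TN61L/L replicate 6. The macrophage median was -0.21 without TN61L/L replicate 1 or TN61R/R replicate 3. In each of these lists the ranges of the summed level overlapped, at 893 to 1948 CPM in TN61L/L and 1084 to 2422 CPM in TN61R/R for the macrophage genes. Klrb1c, the NK1.1 receptor of natural killer cells, stood at 1.29, 2.68 and 7.77 CPM against 4.69, 7.51 and 21.7 CPM (log2 fold change -1.53 ± 0.59, adjusted p = 0.772). Neutrophil genes set one tumour apart, TN61L/L replicate 6, with a list level of 2.26 beside -1.57 to -0.57 in the other 5. Their median of -0.53 was -1.60 without that tumour and -0.05 without TN61R/R replicate 2. The median of 5 B and plasma cell genes was -0.16 and ranged from -0.88 (without TN61L/L replicate 6) to -0.04 with single libraries left out. Interferon target and MHC class I genes had medians of -0.02 and 0.04, which changed sign with single libraries left out.

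**Figure D4:**
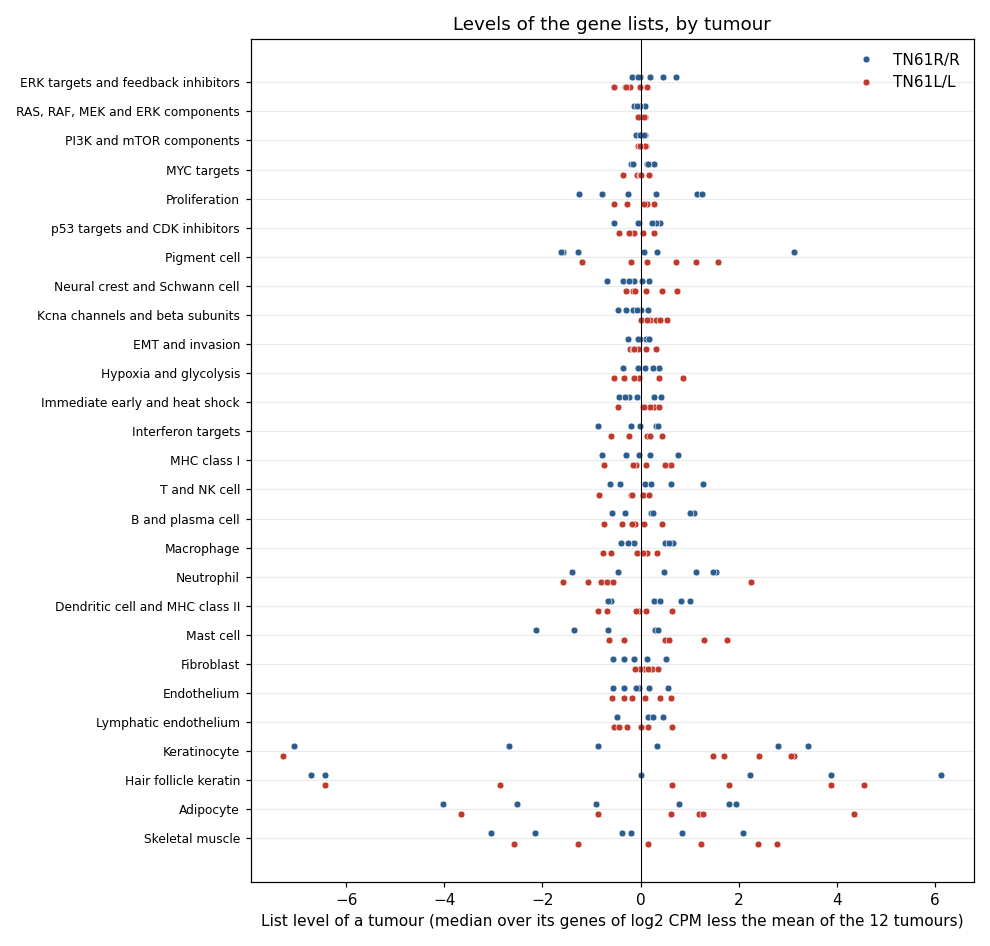
Level of each gene list in each tumour, as the median over its genes of log2 CPM less their mean over the 12 tumours, with TN61R/R in blue and TN61L/L in red. In every list the ranges of the genotypes overlap, and the skin, hair, fat and muscle lists spread over several log2 units in both.

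Genes of the tissue around the tumours differed most in size and least in evenness. All 7 mast cell genes had a fold change above 0, beside 48.6% of all genes, with a median of 1.15. Mcpt4, a protease of connective tissue mast cells, and Cma1, a chymase, had means of 28.0 and 21.2 CPM in TN61L/L and 12.4 and 10.3 CPM in TN61R/R (log2 fold changes 1.18 ± 0.72 and 1.03 ± 0.62). The summed level of the list overlapped, at 31.5 to 201 CPM against 11.01 to 74.3 CPM, and without TN61L/L replicate 6 the median was 0.70. All 8 adipocyte genes were above 0 as well, with a median of 1.31, and without TN61L/L replicate 5 this was -0.15. Skeletal muscle genes had a median of 0.97, with 11 of 11 above 0. This median was 1.89 without TN61R/R replicate 5, 0.47 without TN61L/L replicate 5 and -0.0016 with the title code as a covariate. As all TN61L/L titles carry code 61L, that fit in effect sets them against the 2 TN61R/R tumours of that code. Keratinocyte genes had a median of 0.50, which ranged from 0.20 without TN61L/L replicate 3 to 1.30 without TN61R/R replicate 1. Hair keratins had a median of -0.93, which became 0.78 without TN61R/R replicate 1 and -1.70 without TN61L/L replicate 4. The summed keratinocyte level ran from 9.29 to 5197 CPM in TN61L/L and from 7.52 to 4930 CPM in TN61R/R, and it was lowest in TN61L/L replicate 1 and TN61R/R replicate 2. Their part in the single-gene values was not tested beyond a fit with the keratinocyte level as a covariate, in which edgeR again called 0 genes, with 990 at an unadjusted p under 0.05.

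Fibroblast and endothelial genes were closer. Col1a2, a chain of type I collagen, had means of 6625 and 4888 CPM (log2 fold change 0.44 ± 0.20), and Sfrp2, a secreted Wnt modulator, 17.3 and 53.8 CPM (-1.63 ± 0.70). They were the 2 of 13 fibroblast genes with an unadjusted p under 0.05, beside 5.55% of all genes. The median of the 13 was 0.19. Endothelial genes had a median of 0.10 and lymphatic ones -0.12. Genes of epithelial-mesenchymal transition and invasion, hypoxia and immediate early responses had medians of -0.08, 0.08 and 0.15, and of the erythroid list only Alas2 was tested (-0.11).

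The difference that did pass a test was that of chromosome 6. Chromosome 6 was already known from earlier results of these data, so the test is no independent support. For each tumour, the shift of a chromosome was taken as the median over its tested genes of log2 CPM less their mean over the 12 tumours, minus the same over all genes. On chromosome 6 the 6 TN61L/L tumours stood at 0.23, 0.17, 0.08, 0.12, 0.09 and 0.06 (replicates 1 to 6). The 6 TN61R/R tumours stood at -0.12, -0.10, -0.07, -0.16, -0.13 and -0.17. Every TN61L/L tumour was above every TN61R/R tumour, with a difference of 0.249 between the means. The exact two-sided permutation p was 0.00216, the smallest that 6 against 6 tumours allow, and it was 0.0433 after adjustment over 20 chromosomes. No other chromosome passed, the next lowest adjusted p being 0.281.

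**Figure D5:**
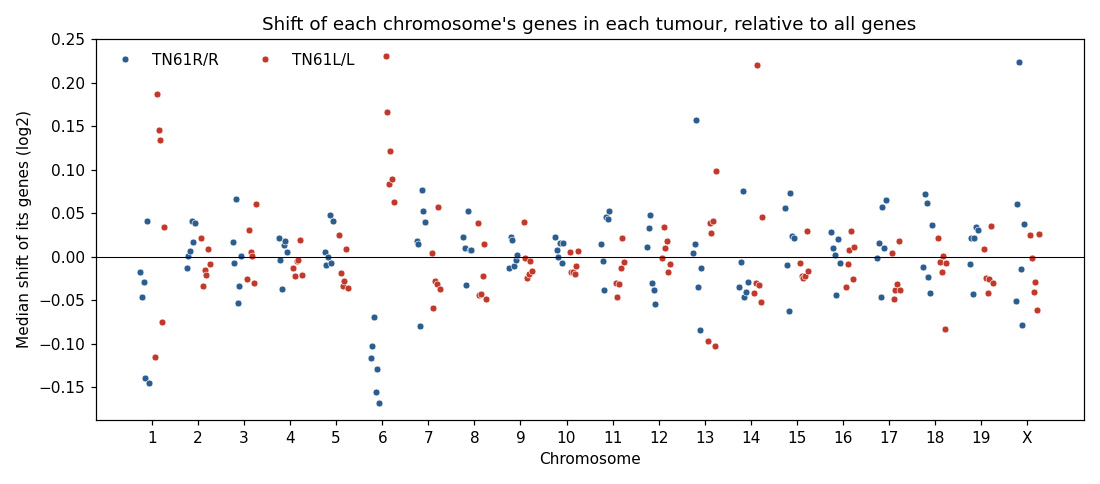
Shift of each chromosome's genes in each tumour relative to all genes, on the log2 scale, with TN61R/R in blue and TN61L/L in red. On chromosome 6 all 6 TN61L/L tumours lie above 0 and all 6 TN61R/R tumours below it, and on chromosome 1 TN61L/L replicates 2, 3 and 4 lie above the rest.

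The shift was spread over many genes of the chromosome. Of 878 tested genes, 701 (79.8%) had a fold change above 0, beside 48.6% of all genes. At an unadjusted p under 0.05, 183 (20.8%) were higher and 5 lower, beside 3.4% and 2.16% of all genes, and 31.3% of all higher genes at that level were on this chromosome, which held 5.10% of the genes tested. In windows of 10 Mb with at least 20 genes, 13 in all, the median log2 fold change was above 0 in each, from 0.17 to 0.30, so the shift was not limited to one stretch. In 8 of the 13 windows the groups did not overlap. Of the 57 genes with complete separation upward, 26 were on chromosome 6. Besides those already described they included Xpc, the damage sensor of nucleotide excision repair, at 23.4, 25.8 and 29.4 CPM in TN61L/L and 16.1, 19.2 and 20.9 CPM in TN61R/R (log2 fold change 0.46 ± 0.11), and Srgap3, a regulator of Rac, at 39.5, 53.2 and 84.8 CPM against 17.1, 27.0 and 38.5 CPM (1.07 ± 0.27). The fold changes of Kcna1, Kcna6, Flnc and Srgap3 were above the chromosome's median of 0.25, and those of Braf and Xpc were nearer to it.

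The chromosome 6 difference was 0.270 within the libraries whose column name has a separator, 5 against 5, where the exact two-sided permutation p was 0.00794 and the adjusted p 0.159. Against the 2 TN61R/R tumours of title code 61L alone it was 0.269 (exact two-sided permutation p = 0.0357, adjusted p = 0.238). In both, every TN61L/L tumour was still above every TN61R/R tumour, and the p is the smallest that these numbers of tumours allow.

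Chromosome 1 was shifted in some tumours of both genotypes, in either direction. TN61L/L replicates 2, 3 and 4 stood at 0.19, 0.14 and 0.13, and replicates 1, 5 and 6 at -0.12, -0.07 and 0.03. TN61R/R replicates 4 and 6 both stood at -0.14. TN61R/R tumours ranged from -0.14 to 0.04, so the groups overlapped, and the difference of 0.108 did not pass (exact two-sided permutation p = 0.106, adjusted p = 0.309). Of its 1030 tested genes, 700 (68.0%) had a fold change above 0. The median was above 0 in all 18 windows of at least 20 genes, and in 0 of the 18 were the groups free of overlap. The highest tumour on chromosome 14 was TN61L/L replicate 3 (0.22). On chromosome 13 and the X chromosome it was TN61R/R replicate 3 (0.16 and 0.22). Of these, only the chromosome 14 value is among the outliers flagged below. Copy number was not analysed here.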

How the data were processed

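The deposited table holds raw featureCounts read counts per gene (mm10), which the authors made from stranded, ribosome-depleted RNA libraries aligned with STAR, with duplicates marked in Picard 2.17.11. The strand setting used in counting was not stated. Of 24421 genes, 2830 had no read and 27 carried names turned into dates. Counts were tested with edgeR 4.0.16 in R 4.3.3 (quasi-likelihood, filterByExpr, TMM, all 24 libraries in 1 fit, Benjamini-Hochberg adjusted p under 0.05). Standard errors were derived from the F statistic. CPM were scaled by TMM, with a prior count of 2 for log2 values. Alternatives used DESeq2 1.42.0, which the study's methods name, limma 3.58.1, other scalings, filters, covariates and samples. Chromosome shifts were tested by exact permutation over 924 regroupings. No replicates were alike within sampling noise (lowest chi-square per degree of freedom 78.0). Genes named were a fixed set of 11 and the 5 of smallest p in each direction, and 2 genes of the set are not reported here. All other genes named were chosen after their values were seen. Members and the 28 gene lists were chosen with earlier results of these data known, and chromosome 6 was known from them too. The steps were tested on simulated data.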

Additional observations from a re-analysis of the deposited data

Results flagged for a closer look

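In groups of 6 tumours, 13 of 202 sets of values had a highest or lowest tumour whose gap to the next took up more of the range than Dixon's 95% critical value, which chance exceeds in about 5% of sets.

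Among single genes in log2 CPM, TN61L/L replicate 3 was low for Antxr1 (7.27, the others from 7.61 to 7.80). TN61R/R replicate 1 was high for Braf (7.41, the others from 6.46 to 6.79), TN61R/R replicate 6 low for Gfra2 (6.32, the others from 6.82 to 7.11) and TN61R/R replicate 3 low for Xpc (4.02, the others from 4.25 to 4.39).

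Among chromosome shifts, TN61L/L replicate 3 (0.220) and TN61R/R replicate 3 (0.0752) were high on chromosome 14. TN61L/L replicate 5 was high on chromosome 15 (0.0301) and low on chromosome 18 (-0.0830), and TN61L/L replicate 1 was high on chromosome 9 (0.0393).

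Among gene lists, TN61L/L replicate 1 was low for keratinocyte genes (-7.28, the others from 1.48 to 3.12) and TN61L/L replicate 6 high for neutrophil genes (2.26, the others from -1.57 to -0.57). TN61L/L replicate 3 was low for T and NK cell genes (-0.85), and TN61R/R replicate 6 low for lymphatic endothelial genes (-0.48).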

How the results depend on the processing

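edgeR and limma-voom called 0 genes in every alternative run, with 487 (title code as covariate) to 1363 (without TN61L/L replicate 1) genes at an unadjusted p under 0.05, while DESeq2 called 31 on 24 libraries and 131 on the 12. The cause of the difference between the tools was not tested. The chromosome 6 difference lay between 0.233 and 0.264 with each library left out and kept its call. Groups that are fully separated stay so when a library is dropped, so the kept call is no further support. It was 0.270 (adjusted p = 0.159) in the separator style and 0.269 (0.238) against TN61R/R of code 61L, an alternative chosen after seeing the data, and 0 chromosomes passed in either, where fewer tumours raise the smallest p possible. Nras turned to 0.0607 with the title code as covariate. In every fit with that covariate, the contrast in effect sets TN61L/L against the 2 TN61R/R tumours of code 61L. Hras turned to -0.0845, -0.0186 and -0.0729 in the separator style and with the Xist or the keratinocyte level as covariate (the last chosen after seeing the data), and ranged from -0.11 to 0.25 with single libraries left out. Of 1383 values of single genes other than Nras, 10 reversed (all Hras), 56 passed a threshold (all DESeq2) and 1317 kept direction and call. Of 702 list medians, 696 moved by less than 1 SD of the list level between tumours of a genotype. That SD was wide for some lists, at 4.82 for hair keratins and 2.54 for adipocyte genes. Medians that changed sign there still count as within it, so the count says little about how steady the medians were. No paired analysis was possible because the labels give no replicate numbers, and numbers in accession order pair nothing. The 12 libraries held 32.1 to 39.1 M reads, and whether depth limits the calls was not tested.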
